A study of Homo sapiens with 6 samples.

Results

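The 48 genes described here encode proteins that copy DNA in S phase: the origin recognition and licensing factors, the MCM helicase and its partners, the polymerases and the sliding clamp, the enzymes that supply deoxynucleotides, and the cyclins and the E2F factor of S phase entry. They were taken as a list of gene names, with no rule on their values on the arrays. Earlier results of these data were known when the list was chosen. Of these genes, 47 were represented by a gene probe named to them alone, among 18757 named genes with a probe on the array. The only probe of RPA2 is annotated to a second gene as well, so RPA2 was not analysed here. RNA from HSC3 cells, a line derived from a human oral squamous cell carcinoma, was hybridized to 6 one-colour arrays, 1 per condition. The cells of 5 arrays had been transfected with LEMD1, MIA, MIA2, TANGO or MATE2 siRNA. The deposited design gives the sixth array, control, a control siRNA, whereas the methods describe the LEMD1 comparison as made with cells without treatment. MIA3 is the gene that the label TANGO names, and SLC47A2 the gene that MATE2 names. With 1 array per condition there was no spread between replicates, so no ratio has an error or a test, and all 5 ratios to control share the same control array. The siRNA reagents for MIA, MIA2, TANGO and MATE2 and the time after transfection were not given in the sources used here.

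Before S phase, the origin recognition complex together with CDC6 and CDT1 loads the MCM2 to MCM7 helicase onto DNA, a step called licensing. At S phase entry, cyclin E kinase and E2F transcription factors switch on the genes of the replication machinery, and CDC45 and the GINS proteins join the MCM ring to form the active helicase. Primase and polymerase alpha then start each new strand, polymerases delta and epsilon extend it on the clamp PCNA, and ribonucleotide reductase, thymidylate synthase and thymidine kinase provide the building blocks. The mRNAs of many of these genes peak around the start of S phase. In RNA from a whole culture, fewer cells in S phase and less mRNA per cell cannot be told apart.

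The siRNA targets did not all follow the labels, so each array is called by its label only. In the lists of values, LEMD1, MIA, MIA2, TANGO or MATE2 names the array labelled with that siRNA. The LEMD1 transcript was near background on the array labelled LEMD1 siRNA, at least 10.1-fold lower than on control, and near background on the array labelled MIA2 siRNA as well, at least 6.57-fold lower. Its signal was 195 on MIA, 3192 on TANGO and 1011 on MATE2, against 278 on control, so it was above control on the arrays labelled TANGO and MATE2 siRNA. A bound written as at least sets the control signal against the lowest signal with a good flag on the array, or the gene's own signal where that is higher. For a gene near background on control, the bound sets its array signal against the lowest good signal on control, or its own control signal where higher. SLC47A2 had a signal of 59.0 on TANGO and 79.6 on MATE2, against 1510 on control, so it was low on both arrays. The MIA2 gene had a signal of 169 on the array labelled MIA2 siRNA and 155 on control by its brighter probe, and its other probe was near background on all 6 arrays, as was the probe of MIA. MIA3 was not analysed here. All 5 squamous keratinocyte markers with a probe were detected on every array, with a summed signal of 33102 on LEMD1, 11274 on MIA, 33013 on MIA2, 8703 on TANGO and 9694 on MATE2, against 9413 on control. Single markers went opposite ways within a sum. On TANGO, KRT14 had a signal of 309 against 5354 on control, and KRT5 4837 against 1558. On MATE2, KRT14 had 2812, KRT5 3283 and KRT17 666, the last against 83.2 on control. Good spots were found for 3 to 4 of 6 fibroblast markers with a probe (summed signal 393 to 695), 1 to 2 of 5 endothelial markers (406 to 607) and 2 to 3 of 6 leukocyte markers (213 to 370.3). Of the defining markers of these cell types, PTPRC, CDH5, KDR, COL3A1 and DCN were near background on all arrays. The part of these marker differences in the results was not tested.

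Between 10 and 27 replication genes were at least 2-fold lower than control on each of 4 siRNA arrays, and 0 were on the array labelled MIA siRNA. A gene was counted as changed where its signal differed from control by at least 2-fold, that is by 1 or more on the log2 scale, and its spots on the siRNA array and on control carried a good scanner flag. On the array labelled LEMD1 siRNA, 13 of 41 measured replication genes were lower and 0 were higher, where 3.98% of all 12924 genes measured were lower and 2.03% higher. On the array labelled MIA siRNA, 0 of 41 were lower and 0 higher, beside 0.258% and 0.391% of all genes. The array labelled MIA2 siRNA had 20 of 41 lower and 0 higher, beside 5.21% and 3.29% of all genes. Where each array was scaled to its median, 18 of 41 were lower and 1 higher on it, beside 4.35% and 4.63%. The array labelled TANGO siRNA had 27 of 42 lower and 0 higher, beside 9.09% and 5.57% of all genes. With median scaling, 28 of 42 were lower and 0 higher on it, beside 10.9% and 4.17%. The array labelled MATE2 siRNA had 10 of 42 (23.8%) lower and 1 higher, although 11.7% of all genes were lower and 5.95% higher there, the largest share of lower genes among the 5 arrays. Under each of normexp correction, no background correction and 50 added to the signal, differences under 2-fold were found for ORC1, MCM4, GINS3, GINS4 and RFC2 on LEMD1, for ORC2, GINS1, GINS3, POLA1, PRIM2 and RFC5 on MIA2, for ORC3, GINS1, RFC4, CCNE2, E2F1 and CHAF1A on TANGO, and for POLA1 on MATE2.

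The median log2 ratio of the replication genes was -0.73 on LEMD1, -0.07 on MIA, -0.95 on MIA2, -1.18 on TANGO and -0.52 on MATE2, whereas the median over all genes measured lay between -0.04 and -0.01. Genes below control made up 38 of 41 on LEMD1, 26 of 41 on MIA, 39 of 41 on MIA2, 41 of 42 on TANGO and 33 of 42 on MATE2. Among all genes measured, 52.5% were below control on LEMD1, 56.6% on MIA, 50.6% on MIA2, 51.9% on TANGO and 52.2% on MATE2, where for the replication genes the shares were 92.7% on LEMD1, 63.4% on MIA, 95.1% on MIA2, 97.6% on TANGO and 78.6% on MATE2. Of the 47 genes, 44 had a good spot on control, with a median signal of 365 in background-subtracted, quantile-normalized units, beside 199.9 for all named genes with a good spot, and 38 had a good spot on all 6 arrays.

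**Figure D1:**
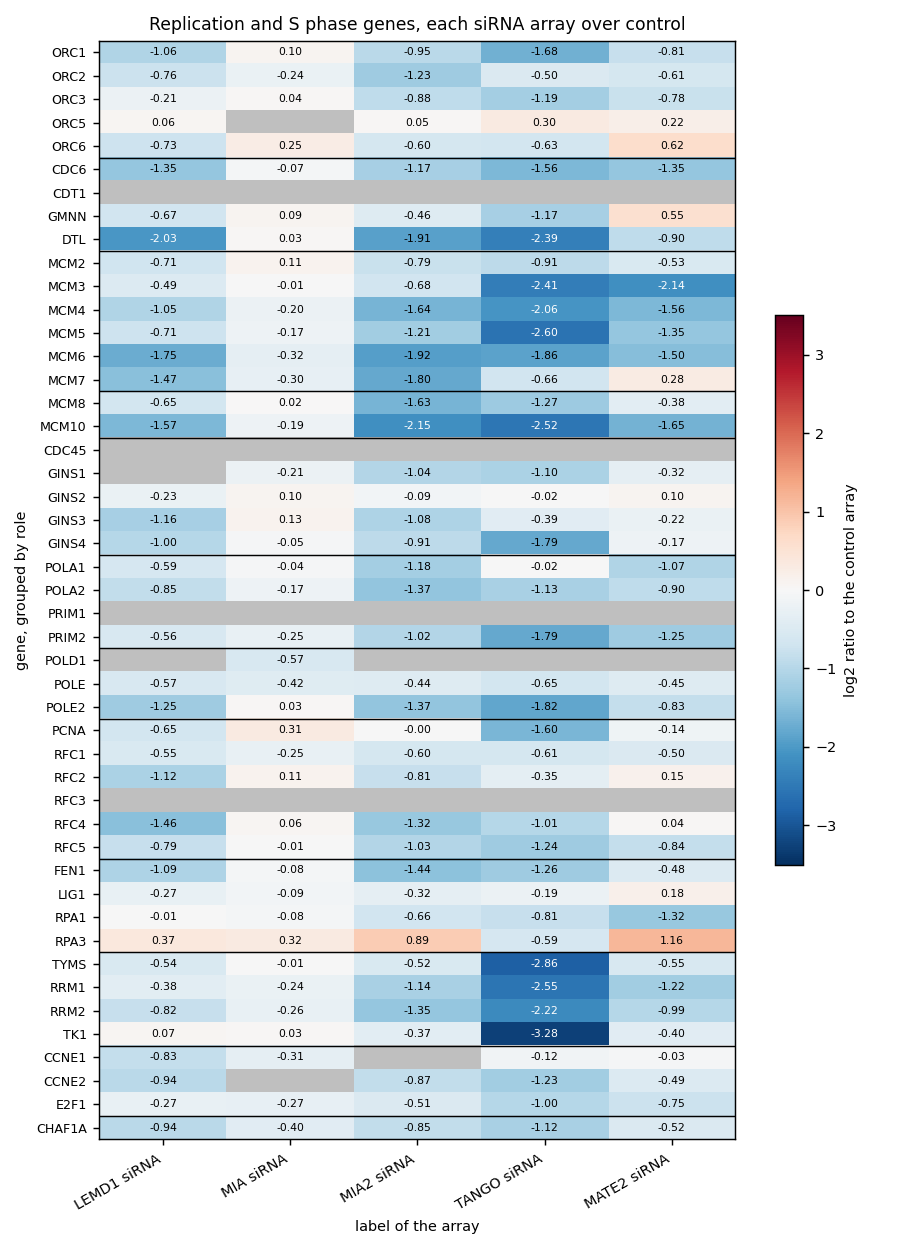
Log2 ratio of each siRNA array to the control array for the 47 replication and S phase genes with a probe, grouped by role from origin recognition at the top to chromatin assembly at the bottom. Blue is lower and red higher than control, and grey marks genes whose spot was not good on 1 or both arrays. The MIA siRNA column stays between -0.57 and 0.32, while the TANGO siRNA column reaches -3.28 at TK1.

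E2F factors bind short sites close to the start of many S phase genes, and the promoters shown here are those of genes that differed on several arrays, on 1 or on none. They are the 250 bases before the start in RefSeq, genome build GRCh38.p14, printed in the direction of transcription. Capitals mark matches to TTTCCCGC, TTTGGCGC, TTTCGCGC or TTTGCCGC on either strand, where matches may overlap. Every promoter shown holds such a match, whereas only 16 of the 42 replication genes with a promoter in the table do. CDC6, MCM10 and TK1, which are not shown, held none. MCM6 was at least 2-fold lower on 4 siRNA arrays, DTL had the lowest ratio of the list on LEMD1, MCM3 was lower on TANGO and MATE2, TYMS was lower on TANGO, and GINS2 hardly differed on any array.
MCM6, chr2:135876444-135876693, minus strand: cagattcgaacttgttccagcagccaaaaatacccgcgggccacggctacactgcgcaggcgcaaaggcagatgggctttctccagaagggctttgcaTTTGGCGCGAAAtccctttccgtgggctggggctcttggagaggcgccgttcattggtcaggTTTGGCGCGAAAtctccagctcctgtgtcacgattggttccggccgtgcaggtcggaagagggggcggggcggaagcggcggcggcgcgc
DTL, chr1:212035498-212035747, plus strand: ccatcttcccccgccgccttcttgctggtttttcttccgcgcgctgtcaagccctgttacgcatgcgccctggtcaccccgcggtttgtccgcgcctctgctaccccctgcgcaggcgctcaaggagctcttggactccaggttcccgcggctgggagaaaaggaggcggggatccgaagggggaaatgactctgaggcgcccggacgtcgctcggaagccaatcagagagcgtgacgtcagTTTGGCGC
MCM3, chr6:52284743-52284992, minus strand: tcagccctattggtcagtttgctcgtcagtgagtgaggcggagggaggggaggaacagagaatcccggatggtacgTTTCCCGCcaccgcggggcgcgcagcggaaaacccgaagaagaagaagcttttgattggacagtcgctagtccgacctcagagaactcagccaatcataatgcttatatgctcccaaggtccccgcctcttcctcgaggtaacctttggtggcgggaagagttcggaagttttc
TYMS, chr18:657403-657652, plus strand: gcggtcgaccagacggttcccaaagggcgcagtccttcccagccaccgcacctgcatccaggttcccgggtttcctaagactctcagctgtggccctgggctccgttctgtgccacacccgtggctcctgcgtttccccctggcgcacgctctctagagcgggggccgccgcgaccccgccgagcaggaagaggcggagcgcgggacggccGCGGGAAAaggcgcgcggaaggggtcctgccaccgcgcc
GINS2, chr16:85688955-85689204, minus strand: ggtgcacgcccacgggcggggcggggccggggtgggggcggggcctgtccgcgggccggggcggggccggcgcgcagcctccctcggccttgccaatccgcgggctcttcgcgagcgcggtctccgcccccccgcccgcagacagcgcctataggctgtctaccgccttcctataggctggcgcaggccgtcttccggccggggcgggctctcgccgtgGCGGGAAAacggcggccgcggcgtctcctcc
The MCM6 window held 4 overlapping matches in 2 runs, the first of which began 152 bases before the start. The match of DTL ended at the start itself, beginning 8 bases before it, and those of TYMS and GINS2 began 39 and 31 bases before it. In MCM3 the match lay farther out, 174 bases before the start. Among the 42 replication genes with a promoter in the table, 16 (38.1%) held such a match in any of its listed windows, beside 928 of 27305 genes (3.40%). The letters and the window were chosen after a first promoter scan, so these shares do not come from a rule fixed in advance. The letters CCAAT, the binding site of NF-Y, stood on either strand in 27 of the 42 (64.3%), beside 37.0% of all genes, and 11 genes (26.2%) held both, beside 1.24%.

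Of the genes with a match to these letters, 3 of 14 measured were at least 2-fold lower on LEMD1, 0 of 14 on MIA, 5 of 14 on MIA2, 9 of 14 on TANGO and 3 of 14 on MATE2. Of the genes without one, 8 of 22 were lower on LEMD1, 0 of 23 on MIA, 13 of 22 on MIA2, 14 of 23 on TANGO and 5 of 23 on MATE2. Beside these counts, 3.98% of all genes were lower on LEMD1, 0.258% on MIA, 5.21% on MIA2, 9.09% on TANGO and 11.7% on MATE2. Genes with a match had a median log2 ratio of -0.58 on LEMD1, -0.60 on MIA2, -1.15 on TANGO and -0.65 on MATE2, and genes without one -0.81 on LEMD1, -1.03 on MIA2, -1.12 on TANGO and -0.52 on MATE2. MCM10, and TK1 with the lowest ratio of the list on TANGO, held no match in these windows, whereas GINS2 held one. A match is a run of letters and was not tested as a binding site. Only these exact letters were searched, so a gene without a match was not shown to lack an E2F site. The split therefore cannot separate genes bound by E2F from others.

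Of the 5 origin recognition genes, 3 passed the 2-fold rule on at least 1 array. ORC1, the large ATPase subunit of the complex, had a signal of 87.6 on LEMD1, 197 on MIA, 94.6 on MIA2, 57.0 on TANGO and 104 on MATE2, against 183 on control. It was lowest on TANGO, 3.21-fold below control, and 2.09-fold below on LEMD1. ORC2, a core subunit, had a signal of 193 on LEMD1, 276 on MIA, 139 on MIA2, 232 on TANGO and 214 on MATE2, against 327 on control, a decrease of 2.35-fold on MIA2 only by the 2-fold rule. ORC3, its partner in the core, had 216 on LEMD1, 258 on MIA, 136 on MIA2, 110 on TANGO and 146 on MATE2, against 250.2 on control, with a 2.28-fold decrease on TANGO. ORC5 and ORC6 differed by less than 2-fold on each array where they were measured, with ratios between -0.73 and 0.62.

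Of the licensing factors, CDC6 passed the 2-fold rule as lower on 4 arrays and DTL on LEMD1, MIA2 and TANGO. CDC6, the ATPase that helps to load the MCM ring, had a signal of 249 on LEMD1, 602 on MIA, 281 on MIA2, 214 on TANGO and 248 on MATE2, against 632 on control. It was thus 2.25-fold to 2.96-fold below control on 4 arrays and within 1.05-fold of it on MIA. DTL is the substrate receptor of a ubiquitin ligase that removes CDT1 in S phase. Its signal was 191 on LEMD1, 795 on MIA, 208 on MIA2, 149 on TANGO and 418 on MATE2, against 779.6 on control. The decrease of DTL was 4.08-fold on LEMD1, rank 42 from the lowest of all 12924 genes measured, 3.75-fold on MIA2, 5.23-fold on TANGO and 1.86-fold on MATE2. Geminin (GMNN), the inhibitor of CDT1, differed from both: it had 703 on LEMD1, 1189 on MIA, 813 on MIA2, 498 on TANGO and 1643 on MATE2, against 1119 on control. It was 2.25-fold lower on TANGO and above control on MATE2, at a log2 ratio of 0.55. CDT1 itself was near background on control and has no ratio, only a bound of at least 1.06-fold higher on MATE2.

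The 6 subunits of the MCM helicase did not move as 1 unit. MCM6 had a signal of 162 on LEMD1, 435 on MIA, 144 on MIA2, 150.1 on TANGO and 193 on MATE2, against 545 on control. MCM4 had 415 on LEMD1, 746 on MIA, 276 on MIA2, 206 on TANGO and 291 on MATE2, against 858 on control. These were the subunits that were at least 2-fold lower on all 4 arrays other than MIA, MCM6 by 2.83-fold to 3.77-fold and MCM4 by 2.07-fold to 4.17-fold. MCM5 had 291 on LEMD1, 424 on MIA, 206 on MIA2, 78.8 on TANGO and 187 on MATE2, against 476 on control. Its decrease was 6.04-fold on TANGO, the largest of any subunit on any array.

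MCM3 and MCM7 set the arrays apart. MCM3 had a signal of 452 on LEMD1, 628 on MIA, 395 on MIA2, 119.6 on TANGO and 144 on MATE2, against 634 on control. It was 5.30-fold lower on TANGO and 4.41-fold lower on MATE2, and within 2-fold on LEMD1 and MIA2, at 1.40-fold and 1.61-fold. MCM7 showed the other order, with 504 on LEMD1, 1133 on MIA, 399 on MIA2, 883 on TANGO and 1693 on MATE2, against 1393 on control. It was 2.77-fold lower on LEMD1 and 3.49-fold lower on MIA2, 1.58-fold lower on TANGO, and slightly above control on MATE2 at a log2 ratio of 0.28. MCM2 had 1828 on LEMD1, 3219 on MIA, 1730 on MIA2, 1592 on TANGO and 2066 on MATE2, against 2982 on control, and stayed within 1.87-fold of control on every array.

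**Figure D2:**
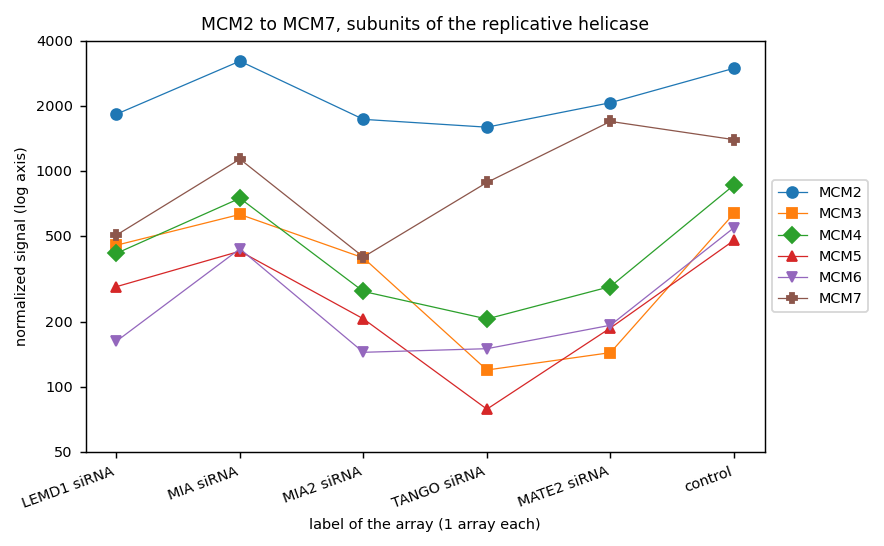
Normalized signal of MCM2 to MCM7 on the 5 siRNA arrays and the control array, 1 array each, on a log axis, with thin lines that join the points of a gene. MCM3 and MCM5 reach their lowest signal on TANGO siRNA, at 119.6 and 78.8, whereas MCM7 is lowest on MIA2 siRNA, at 399.

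MCM10, a scaffold that helps to activate the helicase, was low on the same 4 arrays, with a signal of 96.8 on LEMD1, 253 on MIA, 64.8 on MIA2, 50.3 on TANGO and 91.8 on MATE2, against 288 on control. Its ratio of -2.15 on MIA2, a 4.45-fold decrease, was the lowest of the list there and rank 32 from the lowest of all 12451 genes measured. MCM8, a relative of the MCM2 to MCM7 subunits with a role in recombination repair, had 218 on LEMD1, 346 on MIA, 111 on MIA2, 142 on TANGO and 263 on MATE2, against 342 on control. A second probe of MCM8 gave smaller differences, with a ratio of -0.54 on MIA2 and -0.17 on TANGO, so the decreases of 3.09-fold and 2.41-fold at the brighter probe were not seen at both.

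CDC45 and the GINS proteins, the partners of the MCM ring, were less uniform. CDC45 had a signal of 55.3 on control and was near background on all 5 siRNA arrays, MIA included, which gave only a bound of at least 2.01-fold lower on LEMD1 and of at least 1.43-fold to 1.76-fold on the others. GINS3 had 118 on LEMD1, 289 on MIA, 125 on MIA2, 202 on TANGO and 227 on MATE2, against 264 on control, so it was lower on LEMD1 and MIA2 by 2.24-fold and 2.12-fold. GINS4 had 68.2 on LEMD1, 132 on MIA, 72.7 on MIA2, 39.5 on TANGO and 122 on MATE2, against 136 on control. Its decrease was 3.45-fold on TANGO, whereas the decrease on LEMD1 lay at the 2-fold threshold. GINS1 had 96.0 on MIA, 54.1 on MIA2, 52.0 on TANGO and 88.8 on MATE2, against 111 on control, which put it 2.05-fold lower on MIA2 and 2.14-fold lower on TANGO, and its spot was not good on LEMD1. GINS2 was nearly level, with ratios between -0.23 and 0.10 on the 5 arrays.

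The enzymes that start and extend new strands were lower to different degrees. POLA1, the catalytic subunit of polymerase alpha, had a signal of 192 on LEMD1, 282 on MIA, 128 on MIA2, 286 on TANGO and 138 on MATE2, against 289 on control. It was lower on MIA2 and MATE2, by 2.26-fold and 2.09-fold, and level with control on TANGO. POLA2, its accessory subunit, had 371 on LEMD1, 591 on MIA, 258 on MIA2, 304 on TANGO and 358 on MATE2, against 667 on control. PRIM2, the large primase subunit, had 620.1 on LEMD1, 769 on MIA, 451 on MIA2, 265 on TANGO and 385 on MATE2, against 915 on control. Both passed the 2-fold rule on MIA2 and TANGO, and PRIM2 also on MATE2. The small primase subunit PRIM1 was near background on control and has no ratio. Its bounds were at least 1.01-fold higher on LEMD1, 1.33-fold on MIA and 1.31-fold on MIA2, and it was near background on TANGO and MATE2.

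POLE2, a subunit of polymerase epsilon, had a signal of 284 on LEMD1, 689 on MIA, 260.3 on MIA2, 192 on TANGO and 380.5 on MATE2, against 675 on control, a decrease of 2.38-fold on LEMD1, 2.59-fold on MIA2 and 3.52-fold on TANGO. The catalytic subunit POLE differed less, with ratios between -0.65 and -0.42 on all 5 arrays. POLD1, the catalytic subunit of polymerase delta, had a signal of 51.6 on MIA, against 76.7 on control. It was near background on the other arrays, at least 2.79-fold lower than control on LEMD1, at least 1.79-fold on MIA2 and at least 2.44-fold on TANGO and on MATE2.

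The clamp PCNA and its loader differed in which arrays they were low on. PCNA had a signal of 134 on LEMD1, 261 on MIA, 209.9 on MIA2, 69.3 on TANGO and 191 on MATE2, against 210.5 on control, so the 2-fold rule was passed on TANGO only, at 3.04-fold. RFC4, a small subunit of the clamp loader, had 523 on LEMD1, 1494 on MIA, 573 on MIA2, 713 on TANGO and 1479 on MATE2, against 1435 on control. It was lower by 2.75-fold on LEMD1 and 2.50-fold on MIA2, at the threshold on TANGO with 2.01-fold, and level on MATE2. RFC5 had 308 on LEMD1, 530.0 on MIA, 262 on MIA2, 226 on TANGO and 298 on MATE2, against 534 on control. RFC2 had 145 on LEMD1, 339 on MIA, 179.7 on MIA2, 247 on TANGO and 349 on MATE2, against 314 on control. RFC5 was thus at least 2-fold lower on MIA2 and TANGO and RFC2 on LEMD1. RFC1, the large subunit, stayed within 1.52-fold at its brighter probe, while its other probe gave ratios of -1.14 on MIA2 and -1.20 on TANGO. RFC3 was near background on control and has no ratio, only a bound of at least 1.43-fold higher on MATE2.

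On the lagging strand, FEN1, the flap endonuclease that trims Okazaki fragments, had a signal of 750.0 on LEMD1, 1515 on MIA, 590.4 on MIA2, 669.6 on TANGO and 1145 on MATE2, against 1599.5 on control. It was 2.13-fold lower on LEMD1, 2.71-fold on MIA2 and 2.39-fold on TANGO. The ligase LIG1, which seals the fragments, stayed between -0.32 and 0.18 on all arrays. The subunits of RPA, which coats the exposed single strand, went opposite ways on MATE2. RPA1 had 309.5 on LEMD1, 295 on MIA, 198 on MIA2, 177 on TANGO and 125 on MATE2, against 312 on control, a 2.49-fold decrease on MATE2. RPA3 had 502 on LEMD1, 486 on MIA, 719 on MIA2, 258 on TANGO and 865 on MATE2, against 388 on control, and with a log2 ratio of 1.16 on MATE2 it was the only gene of the list that passed the rule as higher on any array. Over the MIA array in place of control, RPA3 on MATE2 was at 0.83.

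Nucleotide supply genes had their low point on the array labelled TANGO siRNA. TK1, the cytosolic thymidine kinase, had a signal of 2162 on LEMD1, 2108 on MIA, 1594 on MIA2, 212 on TANGO and 1568 on MATE2, against 2063 on control. The 9.71-fold decrease on TANGO was the largest of the list, rank 25 from the lowest of all 12524 genes measured, while on the other arrays TK1 lay within 1.32-fold of control. TYMS, thymidylate synthase, had 514 on LEMD1, 743 on MIA, 519 on MIA2, 103 on TANGO and 509 on MATE2, against 746 on control. It was 7.27-fold lower on TANGO and 1.44-fold to 1.47-fold lower on LEMD1, MIA2 and MATE2. The ribonucleotide reductase subunits were lower on more arrays. The large subunit RRM1 had 573 on LEMD1, 634 on MIA, 339 on MIA2, 127 on TANGO and 320.3 on MATE2, against 747 on control. The small subunit RRM2 had 336 on LEMD1, 495 on MIA, 231 on MIA2, 126 on TANGO and 299 on MATE2, against 591 on control. RRM1 was 5.87-fold and RRM2 4.67-fold lower on TANGO, 2.20-fold and 2.56-fold on MIA2, and 2.33-fold and 1.98-fold on MATE2.

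**Figure D3:**
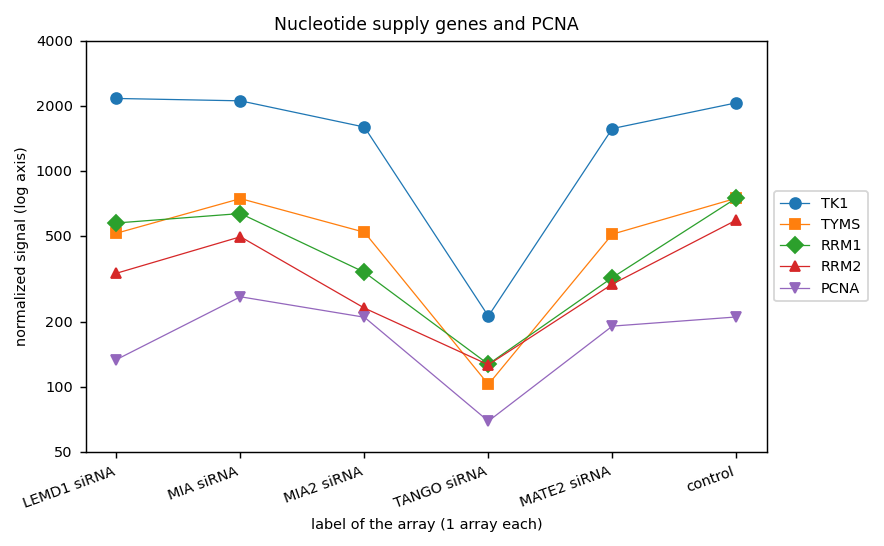
Normalized signal of TK1, TYMS, RRM1, RRM2 and PCNA on the 5 siRNA arrays and the control array, 1 array each, on a log axis, with thin lines that join the points of a gene. All 5 genes are lowest on TANGO siRNA, where TK1 has a signal of 212, against 2063 on control.

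The remaining genes are those of S phase entry, cyclin E and E2F1, and a histone chaperone of chromatin assembly. CCNE2, a cyclin E that partners the kinase CDK2, had a signal of 84.7 on LEMD1, 88.8 on MIA2, 69.4 on TANGO and 116 on MATE2, against 163 on control, and its spot was not good on MIA. E2F1, a transcription factor that activates S phase genes, had 121 on LEMD1, 120.5 on MIA, 102 on MIA2, 72.8 on TANGO and 86.4 on MATE2, against 146 on control. CHAF1A, the large subunit of the chromatin assembly factor that places histones on new DNA, had 159.7 on LEMD1, 231 on MIA, 169.5 on MIA2, 140.2 on TANGO and 214 on MATE2, against 305 on control. All 3 passed the rule on TANGO only, CCNE2 at 2.34-fold and CHAF1A at 2.18-fold, with E2F1 at the 2-fold threshold. The other cyclin E gene, CCNE1, was dim and lay within 1.78-fold of control on LEMD1, MIA, TANGO and MATE2. On MIA2 it was near background, at least 1.73-fold lower than control.

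Ratios between siRNA arrays do not use the control array. Over the array labelled MIA siRNA, 11 of 40 replication genes were at least 2-fold lower on LEMD1, 17 of 40 on MIA2, 23 of 40 on TANGO and 8 of 40 on MATE2, and 0 were higher on any of them. The share of all genes that was lower in these comparisons was 2.9% on LEMD1, 3.14% on MIA2, 7.56% on TANGO and 9.23% on MATE2, and the share that was higher 2.11% on LEMD1, 2.49% on MIA2, 5.57% on TANGO and 5.19% on MATE2. Between the arrays labelled MIA2 and LEMD1 siRNA, 0 of 41 genes differed by 2-fold, beside 0.605% of all genes lower and 0.299% higher on MIA2, and the replication genes had a median log2 ratio of -0.08. The largest differences there were -0.97 for MCM8 and -0.76 for RRM1, with PCNA at 0.65.

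Between the arrays labelled TANGO and MATE2 siRNA, 12 of 42 replication genes were lower on TANGO and 1 was higher, beside 5.9% and 6.73% of all genes, with a median of -0.57. The lower genes were TK1 at -2.88, TYMS at -2.31, RPA3 at -1.74, GMNN at -1.72, GINS4 at -1.62, DTL at -1.49, PCNA at -1.46, RRM1 at -1.33, MCM5 and ORC6 at -1.25, RRM2 at -1.24 and RFC4 at -1.05. POLA1 was the higher one, at 1.05. CDC6 at -0.22, MCM3 at -0.27 and MCM6 at -0.36 were close on these arrays.

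Other replication and S phase genes, 40 in number and chosen as a list, gave a mixed picture. Of these, 5 of 32 measured were at least 2-fold lower and 1 higher on LEMD1, 0 of 31 on MIA in either direction, 6 of 27 lower and 2 higher on MIA2, 9 of 26 lower and 1 higher on TANGO, and 7 of 30 lower and 0 higher on MATE2. Their medians were -0.30 on LEMD1, -0.12 on MIA, -0.61 on MIA2, -0.59 on TANGO and -0.21 on MATE2, nearer to 0 than those of the replication genes above except on MIA. Among all genes measured, 3.98% were lower on LEMD1, 0.258% on MIA, 5.21% on MIA2, 9.09% on TANGO and 11.7% on MATE2. The shares that were higher were 2.03% on LEMD1, 0.391% on MIA, 3.29% on MIA2, 5.57% on TANGO and 5.95% on MATE2. TOPBP1, which helps to load CDC45, had ratios of -0.84 on LEMD1, -0.31 on MIA, -1.22 on MIA2, -1.27 on TANGO and -1.62 on MATE2. The maintenance methyltransferase DNMT1 was at -1.05 on MIA2, -1.92 on TANGO and -1.58 on MATE2, and deoxycytidine kinase (DCK) at -2.01 on TANGO and -1.79 on MATE2. USP1, a deubiquitinase of PCNA, was at -1.48 on TANGO and -1.78 on MATE2. The replisome factor WDHD1 was at -1.03 on LEMD1, -1.003 on MIA2 and -1.15 on TANGO.

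SLBP, the histone mRNA binding protein, was at -1.60 on LEMD1 and -1.27 on TANGO. The histone chaperone ASF1B was at -1.09 on LEMD1 and -1.55 on MATE2, and ATAD5, which unloads PCNA, at -1.003 on LEMD1 and -1.29 on MATE2. SSRP1 passed as higher, at 1.01 on LEMD1 and 1.02 on TANGO. A pair of genes changed direction between arrays. POLE4, a small subunit of polymerase epsilon, was at 1.32 on MIA2 and -1.92 on TANGO, and RNASEH2C, a subunit of ribonuclease H, at 1.18 on MIA2 and -2.01 on MATE2.

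Mitosis and G2/M genes went a different way from the replication genes on LEMD1 and MIA2, and the same way on TANGO. Of 30 such genes, 11 of 30 were at least 2-fold higher and 0 lower on LEMD1, 0 of 28 in either direction on MIA, 8 of 28 higher and 0 lower on MIA2, 13 of 20 lower and 0 higher on TANGO, and 4 of 26 lower and 1 higher on MATE2. Their medians were 0.62 on LEMD1, -0.10 on MIA, 0.28 on MIA2, -1.30 on TANGO and -0.09 on MATE2. Of all genes measured, 2.03% were higher on LEMD1, 0.391% on MIA, 3.29% on MIA2, 5.57% on TANGO and 5.95% on MATE2. Lower shares of all genes were 3.98% on LEMD1, 0.258% on MIA, 5.21% on MIA2, 9.09% on TANGO and 11.7% on MATE2. On LEMD1, 38 of 41 replication genes lay below control, and 0 of 30 mitosis genes did. Cyclin B1 (CCNB1) was at 2.15 on LEMD1, 1.76 on MIA2 and -0.09 on TANGO, and cyclin B2 (CCNB2) at 1.35 on LEMD1, 1.25 on MIA2 and -1.40 on TANGO. The mitotic kinesin KIF20A was at 2.19 on LEMD1 and 1.11 on MIA2, and KIF11 at 1.39 on LEMD1, -1.93 on TANGO and -1.39 on MATE2.

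CDC20, an activator of the anaphase-promoting complex, was at 1.61 on LEMD1, 1.33 on MIA2 and -1.21 on TANGO, and BIRC5, the survivin gene, at 1.45 on LEMD1, 1.56 on MIA2 and -1.77 on TANGO. The centromere gene CENPA was at 1.28 on LEMD1 and 1.43 on MIA2. CENPF was at 1.46 on LEMD1 and -1.06 on MATE2, and the spindle gene ASPM at 1.31 on LEMD1 and -1.22 on MATE2. UBE2C, a ubiquitin-conjugating enzyme that works with the same complex, was at -1.74 on TANGO and 1.61 on MATE2.

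**Figure D4:**
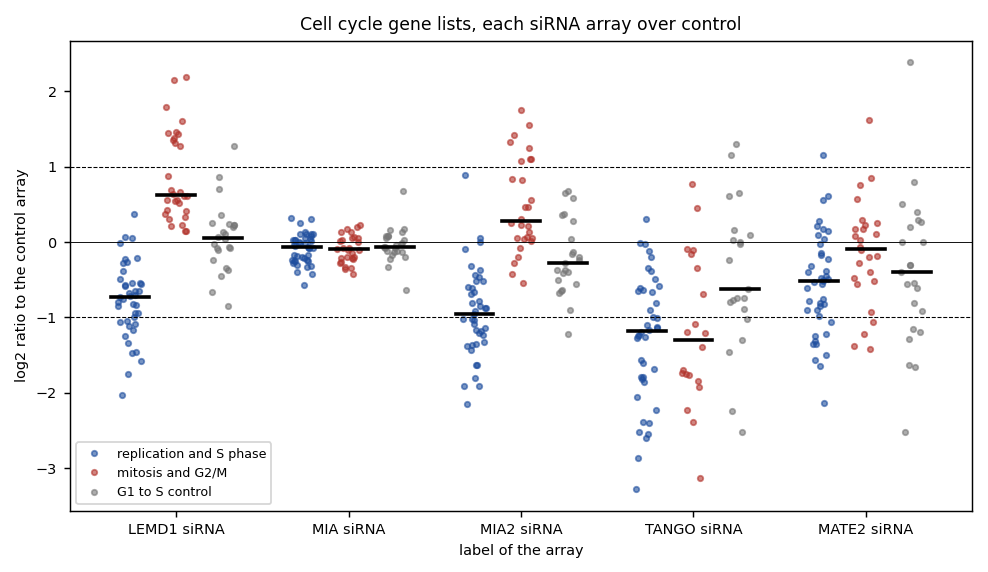
Log2 ratio of each siRNA array to the control array for 3 gene lists, where points are single genes whose spots were good on the siRNA array and on control, each black bar is the median of a list and the dashed lines are at a 2-fold change. On LEMD1 siRNA the medians are -0.73 for replication and S phase genes and 0.62 for mitosis and G2/M genes, and on TANGO siRNA they are -1.18 and -1.30.

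A list of 32 G1 to S control genes was compared with control in the same way. Of these, 0 of 24 measured were at least 2-fold lower and 1 higher on LEMD1, 0 of 25 in either direction on MIA, 1 of 23 lower and 0 higher on MIA2, 5 of 21 lower and 2 higher on TANGO, and 6 of 23 lower and 1 higher on MATE2. Their medians were 0.06 on LEMD1, -0.06 on MIA, -0.28 on MIA2, -0.62 on TANGO and -0.40 on MATE2. Beside these genes, 3.98% of all genes were lower on LEMD1, 0.258% on MIA, 5.21% on MIA2, 9.09% on TANGO and 11.7% on MATE2. The shares of all genes that were higher were 2.03% on LEMD1, 0.391% on MIA, 3.29% on MIA2, 5.57% on TANGO and 5.95% on MATE2. CDK2, the kinase partner of cyclin E, had ratios of -0.84 on LEMD1, -0.11 on MIA, -1.22 on MIA2, -2.24 on TANGO and -1.29 on MATE2. The kinase inhibitor CDKN1C was at -1.30 on TANGO and 2.39 on MATE2.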

How the data were processed

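CodeLink Human Whole Genome arrays were hybridized with Cy5-labelled total RNA, 1 per condition. The scanner files deposited by the authors hold spot intensity, which per the file headers was written by CodeLink Expression Analysis (version 5.0.0.31312), and the intensity used is the spot mean less the median of its local background. A table of intensity values quantile normalized by the authors was used as an alternative.

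Of 53423 gene probes, 320 masked on any array were left out. The others were quantile normalized over the 6 arrays, raised to a floor of 1 and transformed to log2. Probes were named by the platform table, with symbols updated, or by accession. A gene with more than 1 probe was represented by its brightest, by mean log2 over the arrays. Ratios required a good scanner flag on both arrays, and a change was a difference of 1 or more on the log2 scale. A dim gene that falls below the good flag on an siRNA array therefore has only a bound and enters no count. With 1 array per condition no test was run, and the small number of arrays sets the precision. The normalization and the 2-fold rule were run on simulated data in which few probes changed, on 1 array only. That does not show how they act where many genes differ, as on TANGO and MATE2.

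The genes, the 3 further lists and the rules were chosen with earlier results of these data known. MCM2 to MCM7 and each replication gene changed on at least 1 array were named with their values. The other replication genes were given by ranges or bounds. From each further list up to 10 genes changed on at least 2 arrays were named, those with the largest mean size of ratio. In the other replication list and in the mitosis list 11 genes passed. The limit left out SSRP1, which was named in addition, and AURKA. Promoter letters and window were chosen after the array data were seen and after a first promoter scan with a longer window.

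The alternatives were median scaling, spot means without background correction, normexp background correction (limma 3.58.1, R 4.3.3) with an offset of 50, the deposited table, no filter on flags, the mean over good probes, 50 added to the signal, and, in place of control, the median over the 5 other arrays. Chosen after seeing the data were the array labelled MIA siRNA as comparator and normalization without the arrays labelled TANGO and MATE2 siRNA. Values were computed in Python 3.11.15 with numpy 2.4.6 and pandas 2.3.3.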

Additional observations from a re-analysis of the deposited data

How the results depend on the processing

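Of 141 values of the counts and medians under the alternatives, 118 stayed within 1.5 times the count or, for medians, within 0.253, the robust SD of all genes on MIA over control. That limit was set during the analysis. The deposited table, the mean over good probes and normalization without TANGO and MATE2 changed none of them beyond these limits. Of the other 23, 11 came from setting the median over the 5 other arrays in place of control, which holds arrays on which the same genes were low. Against it, lower counts were 4 of 41 on LEMD1, 5 of 41 on MIA2, 13 of 42 on TANGO and 3 of 42 on MATE2. The shares of all genes that were lower were 1.51% on LEMD1, 1.76% on MIA2, 5.85% on TANGO and 7.94% on MATE2. Higher counts were 10 of 41 on MIA and 4 of 42 on MATE2, beside 2.01% and 4.78% of all genes. Medians were -0.18 on LEMD1, 0.67 on MIA, -0.49 on MIA2, -0.76 on TANGO and 0.083 on MATE2, the last with its direction turned. Among named genes that had passed the 2-fold rule, this comparator also turned MCM4 on LEMD1 to 0.51, MCM10 on LEMD1 to 0.077, CDC6 on MIA2 to 0.17 and MCM6 on MATE2 to 0.25. Over all named genes 50 values changed sign against it, 22 of them on MIA.

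Settings that shrink the ratios of dim genes gave fewer lower genes on LEMD1. Of 41, 8 were lower with normexp, 8 without background correction and 8 with 50 added, beside 2.18%, 1.99% and 2.24% of all genes. On MIA2, 12 of 41 were lower without background correction, beside 2.63% of all genes. In the main processing the shares of all genes were 3.98% on LEMD1 and 5.21% on MIA2. The MIA2 median in these settings was -0.69 with normexp, -0.67 without background correction and -0.70 with 50 added, and the TANGO median -0.92 without background correction. With no filter on flags, 1 of 47 genes was lower on MIA and 2 of 47 were higher on MATE2, beside 5.53% and 11.2% of all genes. With median scaling 1 of 41 was higher on MIA2, beside 4.63% of all genes. Over the MIA array 0 of 40 were higher on MATE2, beside 5.19%. Of 1622 values of the named genes under the alternatives, 1340 stayed within 0.253 of the reported ratio and 282 differed by more, and 64 of the 1622 changed sign. No paired analysis was possible because each condition has 1 array. Genes near background on an array, such as CDC45 and POLD1, have bounds only.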
